A study of Caenorhabditis elegans with 2 samples.

Results

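Distal intergenic peaks are places in the genome where the chromatin immunoprecipitation found signal far from the annotated start of any protein-coding gene. The peaks described here are the autosomal entries of the authors' reproducible list whose summit lay outside every annotated gene, over 1000 bp from every protein-coding 5' end and over 100 bp from any tRNA gene (Ensembl WBcel235, the same assembly as ce11). There were 333 of them among 2268 entries, 14.7% of the list and 18.7% of its 1782 autosomal entries. The other autosomal entries were 1027 with the summit within 1000 bp of a coding 5' end (promoter peaks), 418 inside a gene and over 1000 bp from such an end (genic peaks), and 4 intergenic ones beside a tRNA gene. Position and annotation chose the 333, and no signal value did beyond the authors' own threshold. The rule applies to summits only, and the peak itself overlapped an annotated gene at 78 of the 333 (23.4%).

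Whole Caenorhabditis elegans, young adults of mixed sex aged 72 hours, gave the chromatin. They had been brought into step by bleaching and starvation as first-stage larvae. The strain, OP214, carries the unc-119(ed3) mutation and the transgene wgIs214, which encodes the protein of K12H6.12 with GFP and FLAG at its C-terminal end. An antibody against GFP was used, so the material precipitated is that of the tagged protein in all tissues of the animal together, and the promoter that drives the transgene is not named in the labels. The samples form 1 group of 2 biological replicates, which the labels number 2 and 3, so conditions could not be compared. Both replicates carried the tag, and binding of K12H6.12 at any single peak was not tested.

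As background, the genome of this nematode is compact, and most sites of transcription factor binding found in it lie near gene starts. Many coding transcripts receive a spliced leader by trans-splicing, after which the original start of the transcript is lost, so an annotated 5' end can lie downstream of the real start. Autosomes have gene-dense centres with little recombination, and arms with more repeats and more recombination. RefSeq describes the product of K12H6.12 as a protein with a C2H2-type domain, the commonest kind of zinc finger in DNA-binding proteins. No distal peak lay within 50 kb of the K12H6.12 gene on chromosome II (the nearest summit was 59760 bp away) or of unc-119 on chromosome III (91002 bp), the genes named in connection with the transgene.

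The 6 strongest distal peaks on chromosomes II to V show the sequence under the summits, 75 bp on either side of each, from the RefSeq genome of assembly WBcel235. Capitals mark the word ACGCAG, the word CGCAGA and the word GACGCA or their reverse complements. Of all words of 6 letters found within 50 bp of at least 5% of distal summits, these 3 had the highest share there relative to windows of other sequence that meets the same rule. In the order of their signal they are the peaks near R11F4.1, sup-26, T04C4.3, T16A9.3, F54F12.1 and F22B7.9.
R11F4.1 (chrII:4094398-4094548, plus strand): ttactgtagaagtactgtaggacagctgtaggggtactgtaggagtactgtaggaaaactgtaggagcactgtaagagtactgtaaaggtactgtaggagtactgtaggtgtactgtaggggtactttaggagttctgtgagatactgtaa
sup-26 (chrIII:4282164-4282314, plus strand): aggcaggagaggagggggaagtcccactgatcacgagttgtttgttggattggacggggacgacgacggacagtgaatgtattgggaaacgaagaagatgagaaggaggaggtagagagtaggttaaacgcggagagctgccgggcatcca
T04C4.3 (chrIV:2219510-2219660, plus strand): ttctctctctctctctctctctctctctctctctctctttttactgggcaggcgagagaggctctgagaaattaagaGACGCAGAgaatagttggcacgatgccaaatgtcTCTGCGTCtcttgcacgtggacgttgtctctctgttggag
T16A9.3 (chrV:14200197-14200347, plus strand): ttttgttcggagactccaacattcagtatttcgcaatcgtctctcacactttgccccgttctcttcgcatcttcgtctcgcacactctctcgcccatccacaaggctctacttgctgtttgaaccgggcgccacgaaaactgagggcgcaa
F54F12.1 (chrIII:13062570-13062720, plus strand): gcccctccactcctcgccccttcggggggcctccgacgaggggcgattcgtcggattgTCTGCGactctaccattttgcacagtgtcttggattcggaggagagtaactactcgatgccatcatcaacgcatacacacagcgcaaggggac
F22B7.9 (chrIII:8658501-8658651, plus strand): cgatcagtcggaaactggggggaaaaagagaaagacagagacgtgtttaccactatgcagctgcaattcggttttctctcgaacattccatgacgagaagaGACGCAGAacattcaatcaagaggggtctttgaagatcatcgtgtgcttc
The R11F4.1 window is a tandem array, with 12 copies of CTGTA or its reverse complement, against a median of 0 over all 333 peaks and at most 5 in any other. The T04C4.3 window holds the longer word GACGCAGA on both strands, in opposite directions, beside a run of alternating C and T. The F22B7.9 window holds it once, the F54F12.1 window has CGCAGA alone on the minus strand, and the R11F4.1, sup-26 and T16A9.3 windows hold none of the 3 words.

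The strongest distal peaks stood among the strongest of the whole list. The values given here are the authors' signal value, a score of their peak caller with no stated scaling, in the list pooled over both replicates and then in each replicate. The peak near R11F4.1 (chromosome II, 4094247 to 4094737, summit 4094473) had a signal of 695, with 374 in replicate 2 and 300.3 in replicate 3. Its summit lay 124 bp beyond the 3' end of R11F4.1 and 2543 bp from that gene's 5' end. This was the 10th strongest of all 2268 entries.

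The peak near sup-26, an RNA-binding protein gene (chromosome III, 4281936 to 4282593, summit 4282239), had 672 pooled, 429 in replicate 2 and 254 in replicate 3, and lay 2015 bp upstream of that gene. The peak on chromosome IV with its summit at 2219585 had 480.4, 287 and 204 and lay between divergent genes, 2729 bp upstream of T04C4.3 and 3243 bp upstream of fnip-2. On chromosome V, the summit at 14200272 (413, 226 and 191) lay 2572 bp past the 3' end of atfs-1, the transcription factor of the mitochondrial unfolded protein response, and 5242 bp upstream of T16A9.3. All 15 of the strongest distal peaks had a signal of at least 352, ranked from 10th to 134th in the list, and had a peak in both replicates. Of these 15, 6 were on chromosome III, 3 on IV and 2 each on I, II and V, and 7 were in arms.

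The remaining strong peaks lay at varied genes. The summit at III 8658576 (388 pooled, 236 in replicate 2 and 153 in replicate 3) lay 1296 bp past the 3' end of dpy-19, which encodes a C-mannosyltransferase, and 4651 bp upstream of F22B7.9. The summit at I 4536094 (383, 237 and 150.1) lay 1289 bp upstream of bet-1, a bromodomain protein gene. The summit at V 20778418 (383, 186 and 196) lay 1989 bp upstream of hif-1, the hypoxia-inducible factor gene. These 3 had closely similar pooled signal, and replicate 3 was the higher of the replicates at hif-1 alone.

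The summit at III 3801574, 1107 bp upstream of the myotubularin gene mtm-3, had 379 pooled, with 267 in replicate 2 against 82.8 in replicate 3. That is the widest gap between replicates among the 15. Others lay 2338 bp upstream of C33D9.3 (IV 8795246, signal 375), 2879 bp upstream of mrpl-20, a mitochondrial ribosomal protein gene (II 13335402, 365), and 8311 bp upstream of aakg-1, which encodes a gamma subunit of AMP-activated kinase (III 12583712, 356). The peak at I 2639815 (441) lay 396 bp past the 3' end of F40E3.3, and that at IV 4728038 (352) 2725 bp past the 3' end of K08F11.1 and 75 bp from the 5' end of a pseudogene. Of the 31-base words within 50 bp of the summit, 33.8% were unique in the genome at the F40E3.3 peak and 40.8% at the K08F11.1 peak, so reads there could come in part from other copies; their part in the signal was not tested. At the other 13 of the 15 the share was at least 95.8%.

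Few distal windows were short of unique sequence. Fewer than 50% of the 31-base words were unique at 4 of the 333 distal peaks (1.20%), against 50 of the other 1449 autosomal peaks (3.45%). The other pair lay between zip-11 and F42A6.5 (IV 3313558, signal 148) and between wrb-1 and Y50D4A.6 (V 1197473, signal 109), where no word was unique. A local array can still count as mostly unique by this measure, since 95.8% of the 31-base words at the R11F4.1 array were unique. By the lower case letters of the RefSeq genome, which mark repeated or simple sequence, 31 of the 333 windows were over 50% marked, and the median was 17.8% for distal and for other autosomal peaks alike.

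The median signal of distal peaks lay within the quartiles of promoter and of genic peaks. It was 149 in the pooled list (quartiles 115 and 200.4), against 145 (116 and 197) for the other 1449 autosomal peaks. Promoter peaks had a median of 148 and genic peaks 141. In replicate 2 the median was 83.6 for distal peaks and 82.1 for other autosomal peaks, and in replicate 3 it was 66.8 and 68.2. Among the 100 strongest entries were 9 distal peaks (2.70%) and 63 other autosomal peaks (4.35%), where the share over all autosomal entries was 4.04%. The distal share rests on 9 peaks, and no interval was computed for it. Peaks of a library share their source and are not replicates of a condition, so no test was made between classes of peaks, and the 95% Wilson intervals given for shares cover counting error over peaks only. Peak lists hold no read totals, so depth is unknown.

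Both replicates found most of the distal peaks. Taking the 2268 strongest peaks of each replicate, a peak of replicate 2 lay over 272 distal summits (81.7%, interval 77.2 to 85.5) and one of replicate 3 over 261 (78.4%, 73.6 to 82.5). Both did at 214 summits (64.3%, 59.0 to 69.2), against 959 (66.2%, 63.7 to 68.6) of the other autosomal summits; over all autosomal entries the share was 65.8%, so the distal share is near the background. The replicates' own summits lay close by, at a median of 26 bp from the pooled summit in replicate 2 and 19 bp in replicate 3. With the full relaxed lists 331 of 333 were covered in both. The exceptions, each without a replicate 3 peak, were a summit 1625 bp upstream of the potassium channel gene slo-1 (V 18490636, signal 138 in replicate 2) and one 5614 bp upstream of the ribosomal protein gene rps-25 (IV 5953219, 55.8 in replicate 2).

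Across the 331, replicate 2 and replicate 3 signal had a Spearman correlation of 0.57, against 0.53 over 1405 other autosomal peaks; peaks share library and depth and are not independent, and the list was chosen on signal from both replicates. Replicate 2 signal divided by replicate 3 signal had a median of 1.23 (log2 0.30, SD 0.60 over peaks), against 1.18 (log2 0.24, SD 0.62) for other autosomal peaks. The ratio lay over 2-fold from the median of all entries at 31 distal peaks, where the share over all autosomal entries was 9.33%.

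**Figure D1:**
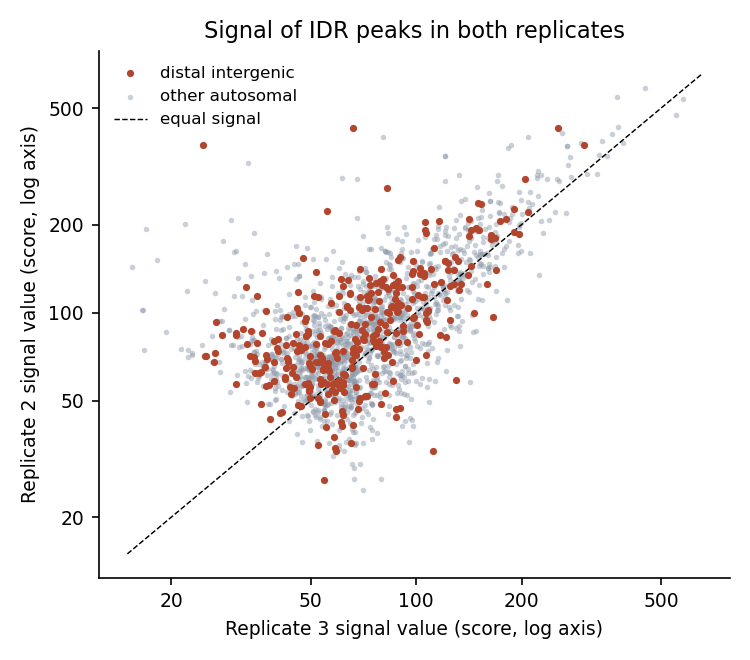
Signal value of each peak in replicate 2 (vertical axis) and replicate 3 (horizontal axis), both on log axes, for 331 distal intergenic peaks and 1405 other autosomal peaks with a peak in both replicates; the dashed line marks equal signal. The distal peaks lie through the cloud of the others, with a median ratio of 1.23 above the line, and a few sit far to the left with little signal in replicate 3.

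Several of the widest differences between replicates belonged to paired summits. Summits within 500 bp of each other formed 12 pairs, so the 333 peaks were 321 loci, and the spacing within pairs was 200 to 214 bp. In 5 pairs the same replicate 2 peak lay over both summits, and both were then given its value. In 4 of these the summits had different replicate 3 peaks, and the higher ratio of replicate 2 to replicate 3 at the weaker summit follows from that assignment. The weaker summit also had the higher ratio in all 7 pairs with a replicate 2 peak for each summit. The 2 highest ratios of all were at weaker summits given the replicate 2 value of their stronger neighbour. The second R11F4.1 summit (II 4094676) had 227 pooled, 374 in replicate 2 from the peak it shares with the first, and 24.7 in replicate 3, a log2 ratio of 3.92. The second sup-26 summit (III 4282444) had 278, 429 and 65.9, a log2 ratio of 2.70, and the next highest was an unpaired summit 1292 bp upstream of gpb-1, a G protein beta subunit gene (II 11749903, 223 and 55.7, log2 ratio 2.00). At the other end stood a summit 2197 bp upstream of the calmodulin gene cmd-1 (V 1154074), with 33.8 in replicate 2 and 112 in replicate 3, a log2 ratio of -1.73. The next lowest had a snoRNA gene close by, at Y23H5B.5 (I 2514340, 58.7 and 130.3, log2 ratio -1.15) and at glb-27 (II 8547156, 26.9 and 54.6, log2 ratio -1.02).

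Distal peaks lay nearer to coding starts than the sequence meeting the same rule. This autosomal sequence came to 16.0 Mb, 19.4% of autosomal length, and the distances of its bases give a description of where the rule lets peaks lie. Of the 31-base words starting in it 84.2% were unique, and 43.9% of its bases were in lower case. Repeated sequence was not taken out of it, here or in the other comparisons, and its part was not tested. The median distance from a distal summit to the nearest coding 5' end was 2251 bp (quartiles 1442 and 3552), against 2763 bp (1724 and 4625) for that sequence. Distal peaks were found at 27.0 per Mb of it up to 2000 bp from a coding 5' end, 19.97 per Mb from there to 5000 bp and 13.1 per Mb beyond 5000 bp, from 142, 145 and 46 peaks. Their median pooled signal in these bins was 135, 157 and 158, so the closest were the most frequent and not the strongest.

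**Figure D2:**
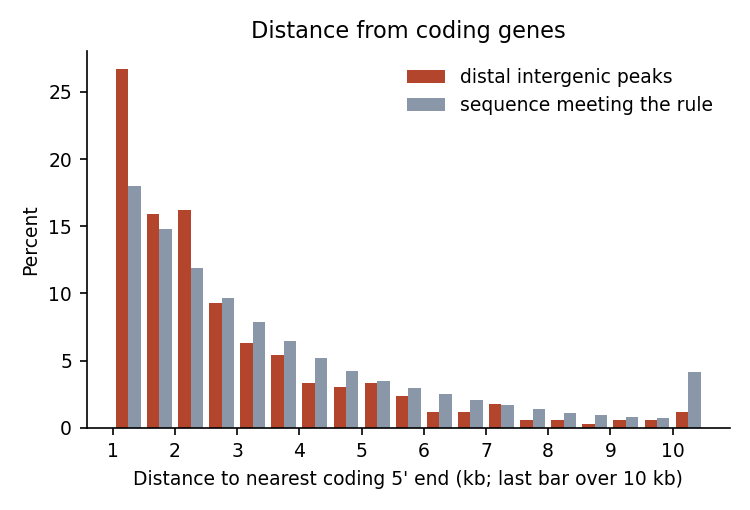
Share of 333 distal intergenic peaks (first bar of each pair) and of the 16.0 Mb of autosomal sequence meeting the same rule (second bar) by distance to the nearest coding 5' end, in steps of 500 bp from 1 kb, with all distances over 10 kb in the last pair. The peaks exceed the sequence in the first bins and fall below it in most bins beyond 3 kb.

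At the limit of the rule the choice of side was a matter of a few bases. The distal peaks nearest to it lay 1008 bp upstream of W05H12.1 (I 13417450, 48.4 in replicate 2 and 46.0 in replicate 3), 1009 bp upstream of T23G4.127 (IV 13699712, 68.1 and 34.7) and 1011 bp upstream of the profilin gene pfn-1 (I 12920993, 53.2 and 81.3). Intergenic peaks just left out lay 1000 bp upstream of ahcy-1 (I 6835469, 95.2 and 80.3), 997 bp upstream of hint-3 (V 7759477, 94.7 and 98.2) and 993 bp upstream of unc-11 (I 3806732, 94.8 and 39.6). The farthest from any coding 5' end, at 16206 bp, was the summit in the gap after Y23H5B.5 on chromosome I (2514340), followed by one 11501 bp from K01F9.2 (III 8865627, 68.8 in replicate 2 and 99.8 in replicate 3) and one 10739 bp upstream of the chemoreceptor gene srab-24 (IV 14260952, 73.4 and 80.9). Each of these 3 had a small RNA gene within 1000 bp, which were a snoRNA gene at 29 bp, cel-mir-80 at 260 bp and a 21U-RNA gene at 340 bp. Non-coding 5' ends of any type lay within 1000 bp of 31.2% of all distal summits and of 30.4% of bases meeting the rule.

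Most distal peaks lay on the upstream side of the nearest coding 5' end, though for many a coding 3' end was nearer. The nearest coding 5' end had the summit on its upstream side at 263 of the 333 (79.0%, interval 74.3 to 83.0), against 68.3% of the bases meeting the rule. The coding genes on either side pointed the same way at 199 peaks (59.8%, 54.4 to 64.9; 53.4% of bases), away from each other at 103 (30.9%, 26.2 to 36.1; 31.0%) and towards each other at 30 (9.01%, 6.38 to 12.6; 15.5%). In 160 cases (48.0%, 42.7 to 53.4) a coding 3' end was nearer than any coding 5' end. At 42 summits (12.6%, 9.47 to 16.6) a coding 3' end lay within 300 bp. The rule sets no distance from 3' ends, and the matching shares of bases were not counted. Median pooled signal was 153 in divergent gaps, 141 in tandem gaps and 152 in convergent gaps. One convergent example lay in a gap of 124 bp between the 3' ends of hsp-1, which encodes a constitutive Hsp70, and nra-1 (IV 17281396, 199 pooled, 124 in replicate 2 and 79.9 in replicate 3).

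The 333 peaks fell into 291 of the 6797 gaps between coding genes that hold sequence meeting the rule. The gaps with a distal peak had a median length of 5124 bp, against 2354.5 bp for those without. More than 1 peak was found in 36 gaps, which held 78 peaks. The gap of 15313 bp between F54F12.1 and Y39E4B.6 held 4, at III 13061308 (172 pooled, 90.0 in replicate 2 and 91.5 in replicate 3), 13062645 (391, 209 and 181), 13062845 (168, 114 and 35.2) and 13068524 (359, 209 and 141). Replicate 3 was low at 1 of these 4, the weaker of a pair.

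A further 4 gaps held 3 distal peaks each, of which 3 gaps are described. Between F38A6.4 and hif-1 the peaks had pooled signals of 112, 383 and 118. Between W08G11.1 and pptr-1, a regulatory subunit gene of protein phosphatase 2A, they had 171, 160 and 256, and between F21D12.3 and npax-1 they had 213, 121 and 161. At least 1 summit with a pooled signal over 200 was thus found in each gap described.

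The share of genes with a promoter peak of their own was higher beside gaps with a distal peak than beside gaps without one, as a description with no test. Of 348 coding genes facing a gap with a distal peak, 46 had an entry of the list within 1000 bp of their 5' end (13.2%, interval 10.1 to 17.2), against 264 of 5701 facing a gap without (4.63%, 4.12 to 5.21). Over all autosomal coding genes the share was 7.72%, and the part of gap length in the difference was not tested. The distal peak had the higher signal in 25 of 56 pairs of a distal peak and the promoter peak of a gene it faced. At sup-26 the distal peak had 672 and the promoter peak 99.5, and at ogt-1, the O-GlcNAc transferase gene, 343 and 168. At Y39E4B.6 the order was the other way, with 391 for the strongest distal peak and 663 for the promoter peak, as at din-1, which encodes a transcriptional corepressor (225 and 335), and at sor-1 (178 and 650.1).

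The 572 distinct coding genes next to a distal peak were counted by family, by patterns in their names. Homeobox genes on the list made up 6 of the 572 (1.05%, interval 0.482 to 2.27), against 0.360% of autosomal coding genes. They were lin-39 and ceh-13, Hox genes that share a gap, and ceh-24, ceh-48, lim-7 and unc-62. The name patterns do not hold every homeobox gene, and unc-39, a Six-family gene 4542 bp downstream of the summit at V 14368532 (166 pooled), is not in these counts. The peak between lin-39 and ceh-13 (III 7549173) was among the weaker, with 103 pooled, 62.4 in replicate 2 and 35.5 in replicate 3, and lay 6487 bp upstream of ceh-13. That of ceh-48 (IV 6809936, 2172 bp upstream) had 160.0, 108 and 57.0.

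Nuclear hormone receptor genes made up 7 of the 572 (1.22%; 1.43% of autosomal coding genes), with nhr-88 the strongest (II 2974072, 342 pooled, 184 in replicate 2 and 164 in replicate 3, 2567 bp upstream). Basic helix-loop-helix genes made up 2 (0.350%, interval 0.0959 to 1.27), hif-1 and hlh-10, against 0.145% of autosomal coding genes. Chemoreceptor genes, which occur in large clusters, made up 5 (0.874%, interval 0.374 to 2.03), against 7.40% of autosomal coding genes, and F-box and MATH-BTB genes 3 (0.524%; 2.29%). C-type lectin genes (2), collagen genes (3), cytosolic ribosomal protein genes (2) and chaperone genes (1) had shares of 0.350%, 0.524%, 0.350% and 0.175%, against 1.37%, 0.829%, 0.441% and 0.313% of autosomal coding genes. The intervals of the nuclear hormone receptor, basic helix-loop-helix, collagen, ribosomal protein and chaperone shares hold the share of all autosomal coding genes. No test was made for any family. Only genes beside a gap with sequence meeting the rule could be counted, and the shares of all autosomal coding genes were not limited to these.

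Within the rule's own sequence distal peaks were denser in the chromosome centres. With the centre taken as the middle 50% of each autosome, 135 of 333 lay in arms (40.5%, interval 35.4 to 45.9), where 51.3% of the sequence meeting the rule lies. This gave 16.4 per Mb in arms and 25.4 per Mb in centres. The share in arms was 36.9% (34.5 to 39.4) for the other autosomal peaks. By chromosome the density was 30.1 per Mb on I, 19.7 on II, 29.98 on III, 16.1 on IV and 15.1 on V. Chromosome I stood apart with 29.4 per Mb in arms and 30.8 in its centre, while on II, III, IV and V the centre was denser, from 18.9 against 10.8 on V to 37.9 against 21.8 on III. Signal differed little, with a median of 153 in arms and 145 in centres.

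**Figure D3:**
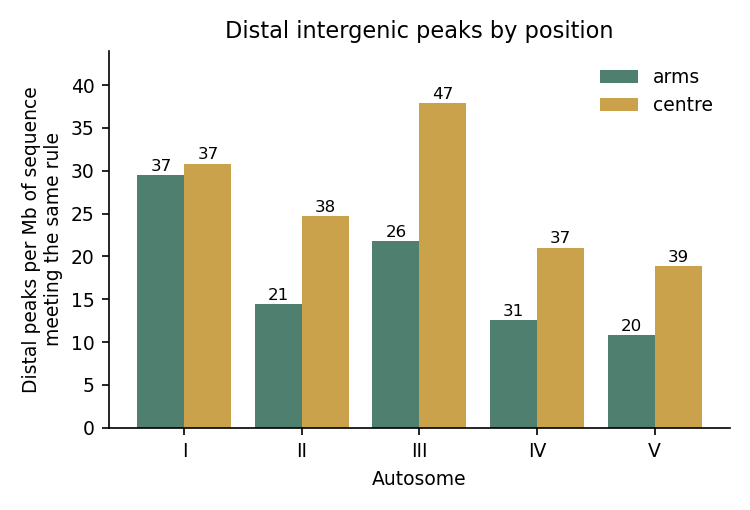
Distal intergenic peaks per Mb of sequence meeting the same rule, in the arms (first bar of each pair) and the centre (second bar) of each autosome, with the number of peaks above each bar. The centre is denser on chromosomes II to V, and both parts of chromosome I are near 30.

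Small nucleolar RNA genes stood close to a number of distal summits. These genes encode guides for the chemical modification of ribosomal and other RNAs, and outside introns they are transcribed from promoters of their own. A snoRNA 5' end lay within 300 bp of 19 distal summits (5.71%, interval 3.68 to 8.74), against 0.162% of the bases meeting the rule. For 24 summits with a snoRNA as the nearest non-coding gene within 1000 bp, 20 lay upstream of its 5' end and the median distance was 52.5 bp. The rule leaves out summits inside any annotated gene, so a summit shortly downstream of a snoRNA 5' end could not be counted. Close to the 5' end, the upstream side was thus fixed in advance. The strongest of the 24 was 300 bp upstream of C26C6.13 (I 7518522, 314 pooled, 205 in replicate 2 and 106 in replicate 3). Next came W03C9.9 at 52 bp (II 11960846, 302, 140 and 169) and F30H5.4 at 28 bp (III 502776, 266, 97.01 and 166). Replicate 3 was the higher at the second and the third and not at the first.

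The distal peaks next to snoRNA genes leaned more to replicate 3 than the rest, as a description with no test. Replicate 3 had the higher signal at 11 of the 19 within 300 bp, with a median log2 ratio of replicate 2 to replicate 3 of -0.25, and at 77 of the 309 without a snoRNA gene as the nearest within 1000 bp, with a median of 0.31. Among all 24 with a snoRNA gene as the nearest within 1000 bp, replicate 3 was the higher at 12, and the median was -0.04. The median GC content within 50 bp of the summit was 56.4% for these 19, against 46.5% for the 309. Log2 ratio and GC content had a Spearman correlation across distal peaks of -0.22 over 331 (-0.18 over 1405 other autosomal peaks), as a description only. With the distal peaks in 3 groups of rising GC content, the median log2 ratio was 0.43, 0.30 and 0.18, and the part of base composition in the snoRNA values was not tested.

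At 4 of these 19 peaks the sequence within 50 bp of the summit held the letters GTTCGANNC on either strand, the core of the B box, which the factor TFIIIC recognises in tRNA genes and in some other genes of RNA polymerase III. The letters were chosen after seeing the sequences. They are shown in capitals, on the strand of the snoRNA gene, with 15 bases on either side.
W03C9.9 (chrII:11960856-11960894, plus strand): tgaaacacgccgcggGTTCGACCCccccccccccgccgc
F30H5.4 (chrIII:502765-502803, plus strand): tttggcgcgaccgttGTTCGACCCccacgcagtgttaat
F12F6.11 (chrIV:11549857-11549895, minus strand): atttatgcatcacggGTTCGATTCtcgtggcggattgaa
F32E10.10 (chrIV:7574096-7574134, plus strand): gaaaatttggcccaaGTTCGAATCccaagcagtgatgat
The middle of the match lay 23, 20, 12 and 7 bp upstream of the annotated snoRNA 5' end. By the rule, the windows searched were centred on summits outside the gene. The peaks of F12F6.11 and F32E10.10 were weaker than the others, with 139 and 121 pooled. Among the other 314 distal peaks 2 held these letters (0.637%), and 0.714% of all such windows of the sequence meeting the rule did, as did 6.70% of genic peaks and 2.53% of promoter peaks. Summits inside tRNA genes were not taken out of the genic and promoter classes. A match is a description of letters and does not show that TFIIIC binds there.

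Other non-coding genes were near distal summits to differing extents. Genes of the unclassified ncRNA type had a 5' end within 300 bp of 34 summits (10.2%, interval 7.40 to 13.9), against 3.55% of the bases meeting the rule, and their median pooled signal was 184. Genes for 21U-RNAs, the piRNAs of the germline, had one within 300 bp of 8 summits (2.40%, 1.22 to 4.67), against 9.34% of bases, with a median of 114. Pseudogenes had 5 (1.50%; 2.33% of bases). MicroRNA genes had 2 (0.601%, against 0.183% of bases), at cel-mir-53 (IV 11027770, 79 bp, 84.3 in replicate 2 and 101.6 in replicate 3) and cel-mir-80. Long intergenic RNA genes also had 2 (0.601%, against 0.170% of bases). The stronger lay 228 bp from linc-126 (IV 8629781, 126 and 76.8), 1552 bp upstream of the diacylglycerol kinase gene dgk-4. The strongest peak with a 21U-RNA gene within 1000 bp lay 3694 bp upstream of lip-1, which encodes a MAP kinase phosphatase (IV 6839264, 203 pooled, 124 in replicate 2 and 74.0 in replicate 3). The 5' end of the unclassified ncRNA gene C05B10.19 was nearer to it, at 43 bp against 212 bp for the 21U-RNA gene. The 1 peak with a tRNA gene within 1000 bp (0.300%, against 0.579% of bases) lay 1248 bp upstream of the chemoreceptor gene srg-26 (V 5330019, 150.8, 99.6 and 46.4). Here too an unclassified ncRNA gene was nearer, C10G8.9 at 105 bp against 191 bp for the tRNA gene. The 1 peak with an antisense RNA gene within 1000 bp (0.300%, against 0.0571% of bases), anr-58, is the fully repeated one beside wrb-1. No distal summit lay within 1000 bp of an snRNA or rRNA 5' end, which make up 0.234% and 0.114% of the bases, and 0 of 333 allows a share of up to 0.901% by the limit of 3 counts, or 1.14% by the upper Wilson limit.

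**Figure D4:**
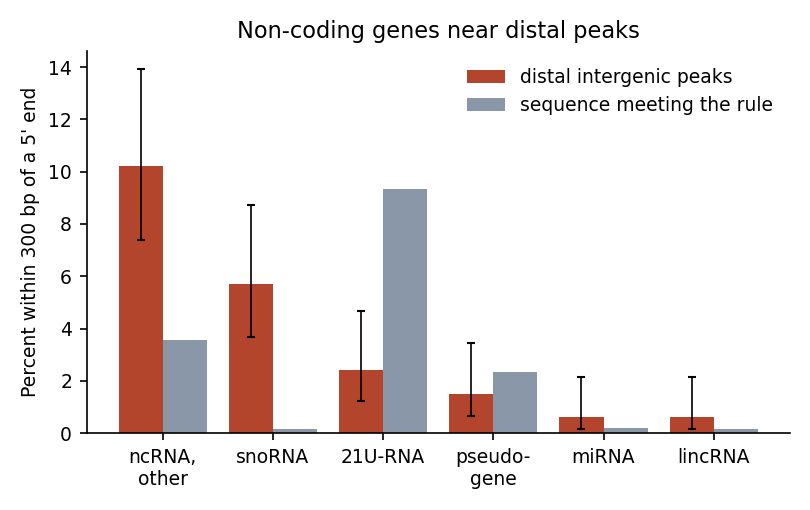
Share of 333 distal intergenic summits (first bar, with 95% Wilson interval) and of the sequence meeting the same rule (second bar, counted base by base) that lies within 300 bp of the 5' end of a non-coding gene of each type. The summits exceed the sequence for unclassified ncRNA and snoRNA genes and lie below it for 21U-RNA genes.

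Distal summits were richer in G and C than the sequence meeting the rule taken as a whole. The median GC content within 50 bp of the summit was 47.5% (quartiles 43.6 and 53.5), against 33.7% for the windows of the sequence meeting the rule. Other autosomal peaks had 48.5%. Arm peaks had a median of 51.5% and centre peaks 45.5%, while windows meeting the rule differed little, with 33.7% in arms and 32.7% in centres.

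The words printed in capitals above were each found at over 20% of the distal summits. ACGCAG or its reverse complement CTGCGT was in the window of 50 bp on either side of 84 distal summits (25.2%), 16.1% of other autosomal summits and 1.96% of windows meeting the rule. CGCAGA was in 84 as well (25.2%, against 15.3% and 2.26%), and GACGCA in 71 (21.3%, against 16.7% and 2.07%). They overlap in 1 longer word, GACGCAGA, found in 54 windows (16.2%, against 8.49% and 0.639%), and AGACGCAG, which is shifted by 1 base, was the most frequent 8-letter word with 57 (17.1%). The words were chosen from these same windows by their excess over the sequence meeting the rule, so this excess is a description. The difference in GC content between summits and that sequence moves with it, and its part was not tested. Other autosomal peaks have a similar GC content. The words were chosen from distal windows and not from theirs, so the distal excess over these peaks is a description too.

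At least 1 of the 3 words was present at 105 distal summits (31.5%, interval 26.8 to 36.7), 366 other autosomal summits (25.3%, 23.1 to 27.6) and 4.33% of windows meeting the rule. The choice of the words from distal windows favours the distal share. Distal peaks with a word had a median pooled signal of 163, those without 138; in replicate 2 the medians were 87.5 and 80.8, and in replicate 3 76.2 and 63.6. Arm peaks had a word in 55 of 135 cases (40.7%, 32.8 to 49.2) and centre peaks in 50 of 198 (25.3%, 19.7 to 31.7), where windows meeting the rule had 4.79% and 3.85%. Among the 15 strongest distal peaks 8 had one.

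Since the words were chosen for their share within 50 bp of the distal summits, a high value there was built in, and the profile is a description only. Within 50 bp of distal summits there were 7.93 positions with a word per kb, from 50 to 100 bp 4.29, from 100 to 150 bp 2.52 and from 150 to 200 bp 1.14, against 0.687 in windows meeting the rule. Other autosomal summits had 5.49 per kb within 50 bp. From 200 bp on, the distal values lay between 0.450 and 1.17 per kb.

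**Figure D5:**
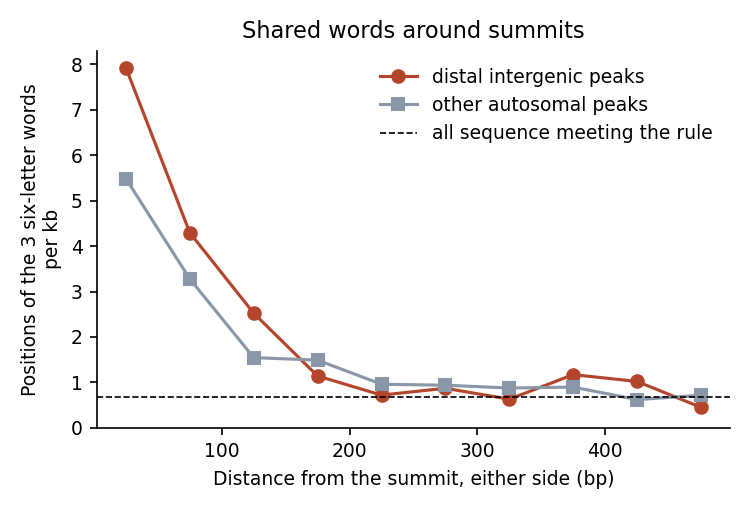
Positions per kb at which the word ACGCAG, the word CGCAGA or the word GACGCA occurs on either strand, by distance of the word's middle from the summit on either side in steps of 50 bp, for 333 distal intergenic peaks (circles) and 1449 other autosomal peaks (squares); the dashed line is the mean over windows meeting the rule, 0.687. Both profiles are highest at the summit, with 7.93 (built in, since the words were chosen within 50 bp of the distal summits) and 5.49 per kb, and come near the dashed line beyond 200 bp.

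A run of alternating G and A was the commonest of the fixed motifs. GAGAGA or TCTCTC was present at 141 distal summits (42.3%, interval 37.2 to 47.7), at 27.7% of other autosomal summits, among them 24.1% of promoter peaks and 37.1% of genic peaks, and in 5.63% of windows meeting the rule. It was present at 70 of 135 arm peaks (51.9%, 43.5 to 60.1) and 71 of 198 centre peaks (35.9%, 29.5 to 42.7), a split not counted for other autosomal peaks. The E-box CACGTG was found at 15 distal summits (4.50%, against 5.38% of other autosomal peaks and 1.43% of windows), and CGCGCG at 17 (5.11%, 5.80% and 0.691%). The E2F letters TTCGCGC were at 5 (1.50%, 2.90% and 0.558%) and the AP-1 letters TGACTCA at 3 (0.901%, 1.31% and 0.960%). Both the GATA letters TGATAA (3.00%, against 3.31% of other peaks and 8.81% of windows) and a run of 7 T (9.91%, 10.1% and 25.7%) were less frequent than in windows meeting the rule. All motifs were searched on both strands.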

How the data were processed

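Chromatin immunoprecipitation with sequencing was done by the authors on both replicates; aligner, peak caller and threshold were not given in the sources used here. Per the file headers, peaks on build ce11 were called on each replicate and on both pooled against 1 control alignment, and the IDR list (irreproducible discovery rate) was derived from these 3 lists. The deposited signal value is a score of unstated scaling; the deposited significance is a −log10 q-value, which was not used here. The lists held 27073 peaks (replicate 2), 30000 (replicate 3) and 30000 (pooled). The pooled signal is the authors' value.

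Summits are the start plus the deposited offset. Genes are those of Ensembl release 115 (46890 genes, 19973 coding). A replicate's value at a summit is its highest-signal peak over it. The sequence meeting the rule was counted base by base and in 151574 windows of the same width as those at summits (50 bp on either side). Uniqueness is over 31-base words in the nuclear genome. Members, lists and windows were chosen with earlier results of these data known; pairs, groups by GC content and the B box were added later. Named peaks are the 15 strongest, the 3 farthest, those at the limit, the extreme replicate ratios, those missing in a replicate and the strongest near each non-coding type; other peaks (by gap, gene family, promoter peak or B box) were named after their values were seen. One gap named by its flanking genes is not reported here. Classification was tested on simulated data. Python 3.11.15, numpy 2.4.6, pandas 2.3.3 and scipy 1.17.1 were used.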

Additional observations from a re-analysis of the deposited data

How the results depend on the processing

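Of 73 alternative values for 10 results, 56 stayed within the 95% interval of the reported value, or within 1.5 times for a count; none changed sign. The number of distal peaks was 191 with a limit of 2000 bp, 471 with one of 500 bp and 170 in the 1134 entries of highest signal, fewer by construction, and 327 to 344 when the rule was applied to the 2268 strongest peaks of 1 replicate; with RefSeq genes it was 352, all of the 333 among them. The 2000 and 500 bp limits moved the median distance to the nearest coding 5' end to 3236 and 1541 bp. Among the 170, the median distance was 2391 bp, the median signal 199, the median GC content 50%, the Spearman correlation between replicates 0.385 and the share covered in both replicates 94.7%. That share was 53.8% with overlap of 50% of both intervals, 99.4% with the full lists, and 78.4 to 81.7% with 1 replicate alone. With a narrower centre (3 equal parts per chromosome) 60.96% lay in arms, where other autosomal peaks had 55.97%. Median GC content was 45.2% within 150 bp of the summit, and 45.5% to 48.5% when the rule was applied to 1 replicate. A non-coding 5' end lay within 1000 bp of 31.2% of summits and within 300 bp of 19.5%. Of the bases meeting the rule, 30.4% and 15.5% lay as near, so the share within 1000 bp is near the background. No paired analysis was possible because there is 1 group. The unknown depth of the libraries limits what can be said of weak peaks. The replicate lists and RefSeq genes were alternatives chosen after seeing the data.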
